A study of Mus musculus with 6 samples.

Results

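The genes described here are 34 components of the photoreceptor ribbon synapse and of the vesicle release machinery, taken by gene symbol from a fixed list. All 34 symbols were found among the 49997 genes of each count table. The list follows function and its rule uses no measured value, but it was chosen with earlier results of these data known. It holds 8 genes of the ribbon and active zone, 2 of vesicle priming, 4 of the calcium channel, 6 of the vesicle, 10 of membrane fusion and 4 of vesicle recycling.

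RNA was sequenced from sorted photoreceptors of 6 mice, 3 that received a guide RNA against Nr2e3 (guide libraries) and 3 that received a non-targeting control guide (control libraries). Every animal was of the Rosa26-Cas9 strain, in which all cells express the nuclease SpCas9, so both groups carried nuclease, virus and reporter. The adeno-associated virus with 7m8 coat was delivered under the retina at postnatal day 21 by the series text and at 4 weeks of age by the treatment protocol. Its human GRK1 promoter drove the red protein mCherry in photoreceptors, and about 100000 mCherry-positive cells from 2 retinas of 1 animal were sorted 6 months later. The sort selected for the reporter and not for an edited Nr2e3 gene, so unedited cells can be present. Guide replicate 1 came from a male, guide replicates 2 and 3 from females, and the 3 control animals were male.

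Libraries held 24705561 to 34286248 gene counts. The 8 rod markers, among them rhodopsin, together took 146131 to 170952 CPM (a count scaled to the library's total gene count). Nr2e3 itself stood at 2024, 1773 and 2303 CPM in guide and at 1695, 1608 and 1645 CPM in control libraries. A count over the whole gene does not read small insertions or deletions and therefore does not check the labels. Control replicate 3 stood apart from the other controls. Its 10 microglia markers summed to 316 CPM against 30.9 and 34.98 CPM, and its 35 markers of inner retinal neurons to 405 CPM against 747 and 816 CPM. Values without this library are given for some of the genes in which it stood apart from the other controls.

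Photoreceptors release glutamate continuously in darkness from a ribbon, a plate-like scaffold built from the RIBEYE product of Ctbp2 that tethers vesicles above the active zone. Calcium enters through CaV1.4 channels next to the ribbon, synaptotagmin-type sensors and complexins tune fusion by the SNARE proteins syntaxin 3, SNAP-25 and VAMP2, and the ATPase NSF with its SNAP adaptors takes spent SNARE complexes apart. Membrane is then retrieved by dynamin, amphiphysin and synaptojanin. Many of these proteins belong to families whose other members serve conventional synapses of inner retinal neurons, and use of one paralog over another is a known feature of the photoreceptor terminal.

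All 34 genes passed the filter on low counts. Of these, 1 gene passed the test between groups (edgeR's quasi-likelihood test, Benjamini-Hochberg adjusted over 17138 genes), against 0.344% of all genes tested. It was Napb, the beta form of the SNAP adaptor, which rose 1.98-fold in guide libraries. DESeq2 also called 1 of the 34 (1.23% of all genes it tested) and limma-voom 1 (0.327%), Napb in each case. Only 1 other member, Cplx3, had an unadjusted p under 0.05. The median log2 fold change of the 34 was -0.09, beside -0.01 over all tested genes, with 14 members above 0 and 20 below.

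**Figure D1:**
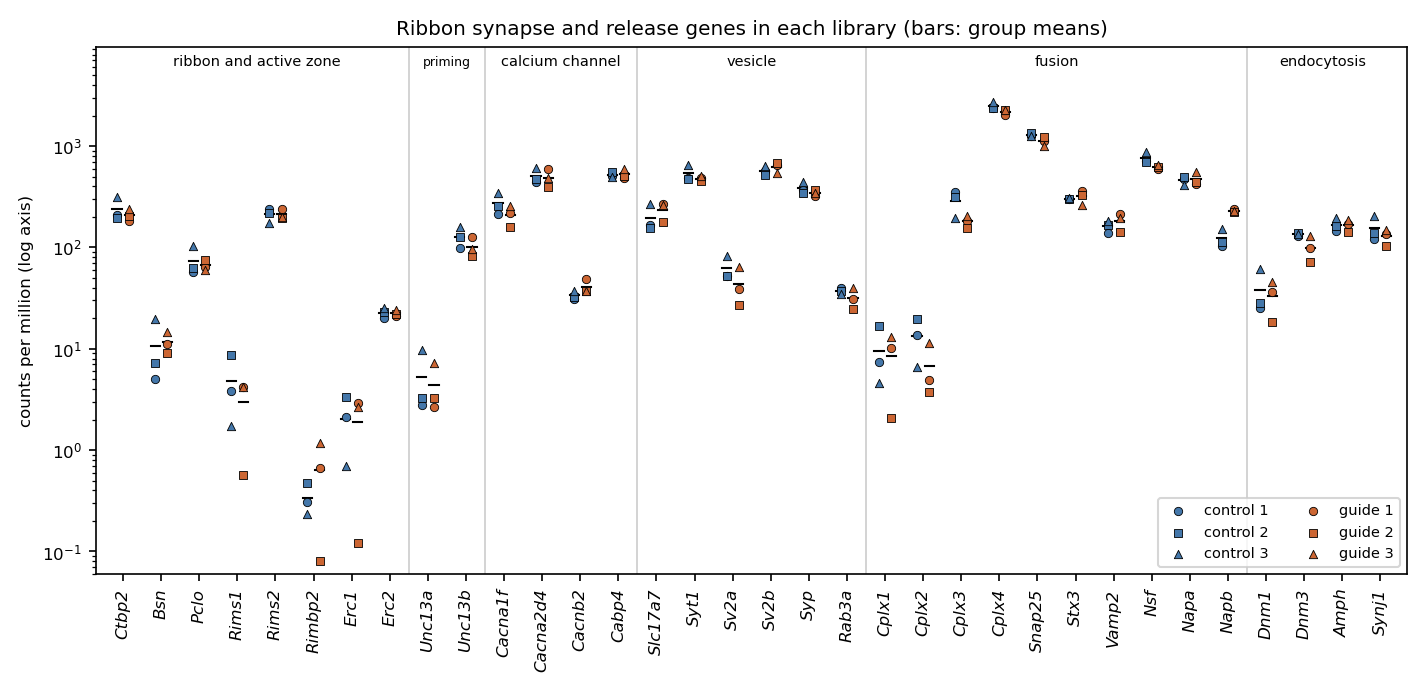
CPM of the 34 genes on a log axis in each of the 6 libraries, with control libraries in blue, guide libraries in orange and black bars for group means. Cplx4 is highest at 2016 to 2751 CPM, Rimbp2 is lowest, and Napb is the gene whose guide libraries all lie well above its control libraries.

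Summed over the 34 genes, release transcripts took 9661, 9881 and 11145 CPM in control and 9403, 9186 and 9666 CPM in guide libraries. The groups overlapped narrowly, between guide replicate 3 and control replicate 1. Cplx4 alone supplied 23.9% of this sum on average. Values of guide and control libraries did not overlap for 4 of the 34 genes (11.8%), against 12.2% of all tested genes. Guide libraries were lower for 3 of these, Cplx4, Snap25 and Nsf, against 7.55% of all tested genes, and higher for Napb. On the normalised library size of the test, the groups of Cplx4 and Snap25 overlapped, those of Nsf and Napb did not, and Cacnb2 was higher in each guide library.

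**Figure D2:**
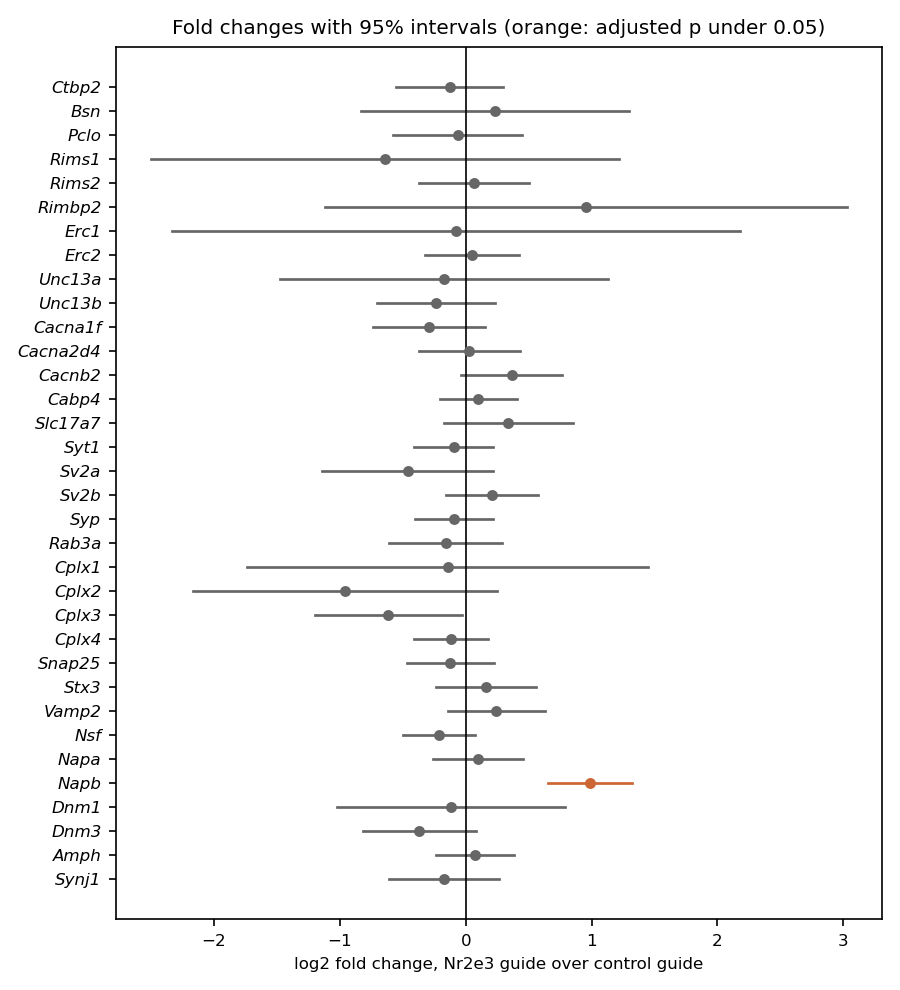
Log2 fold change of each gene, Nr2e3 guide over control guide, with its 95% interval from the fit over all genes. The interval of Napb runs from 0.65 to 1.32 and it is the gene marked in orange as past the threshold. Intervals of Rims1, Rimbp2, Erc1, Cplx1, Cplx2, Unc13a and Bsn span more than 2 log2 units.

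Of the 8 ribbon and active zone genes, 0 passed by any of the 3 tools, and no unadjusted p lay under 0.05. Ctbp2, which encodes both RIBEYE and the corepressor CtBP2, stood at 208, 196 and 315 CPM in control and at 182, 203 and 238 CPM in guide libraries. Control replicate 3 was the highest of the 6, and the log2 fold change was -0.13 (SE 0.18, adjusted p = 0.995). Without that library it was 0.0569 (SE 0.15). A count per symbol adds the RIBEYE and CtBP2 transcripts, so the ribbon form is not read on its own.

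Bsn encodes Bassoon, which anchors the ribbon to the active zone. It was at 5.06, 7.26 and 19.7 CPM in control and at 11.3, 9.15 and 14.6 CPM in guide libraries. The guide values fell inside the wide range of the control libraries (log2 fold change 0.23, SE 0.46). Pclo, which encodes the related scaffold Piccolo, was at 57.6, 63.0 and 102 CPM in control and at 64.5, 75.3 and 59.6 CPM in guide libraries (-0.07, SE 0.22). Control replicate 3 was again the highest library for both genes, and without it Bsn stood at 0.94 and Pclo at 0.17 on the log2 scale, neither past the threshold.

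Rims2, a RIM scaffold that links vesicles to calcium channels, was at 237, 221 and 176 CPM in control and at 240.3, 194 and 201 CPM in guide libraries (log2 fold change 0.07, SE 0.19). Its paralog Rims1 was at 3.86, 8.76 and 1.75 CPM in control and at 4.18, 0.567 and 4.23 CPM in guide libraries. Lowest were control replicate 3 and guide replicate 2, and the groups overlapped (-0.64, SE 0.80). Among the ELKS scaffolds, Erc2 was even across libraries, at 19.9 to 25.1 CPM in control and 21.0 to 24.1 CPM in guide libraries (0.05, SE 0.16). Erc1 was at 2.11, 3.33 and 0.700 CPM against 2.90, 0.121 and 2.69 CPM, where the guide replicate 2 value rests on 3 counts. Exons of Erc1 overlap those of Gm44317 on the opposite strand over 11.8% of their length, and without strand such reads cannot be assigned. Rimbp2, the RIM-binding protein, was close to the limit of detection, with 10, 16 and 8 counts in control and 18, 2 and 39 counts in guide libraries.

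The Munc13 priming factors differed in level by more than an order of magnitude. Unc13b was at 98.6, 126 and 158 CPM in control and at 126, 83.0 and 96.3 CPM in guide libraries (log2 fold change -0.24, SE 0.20), with overlapping groups. Unc13a, the main form of conventional brain synapses, was at 2.79, 3.27 and 9.80 CPM against 2.68, 3.28 and 7.25 CPM (-0.17, SE 0.56). In both groups the replicate-3 library held the most Unc13a, and without control replicate 3 its log2 fold change was 0.55 (SE 0.46). Neither gene passed the test.

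Genes of the calcium channel other than Cacnb2 were abundant. Of the 4 genes, 0 passed by any of the 3 tools, and no unadjusted p lay under 0.05. Cacna1f, the pore-forming subunit CaV1.4, was at 215, 257 and 343 CPM in control and at 217, 159 and 255 CPM in guide libraries (log2 fold change -0.29, SE 0.19, 95% interval -0.74 to 0.15), and without control replicate 3, its highest library, -0.15 (SE 0.18). Cacna2d4, its extracellular alpha2delta subunit, was at 438, 472 and 604 CPM against 589, 393 and 479 CPM (0.03, SE 0.17), with overlapping groups. Cabp4, the calcium-binding protein that shifts CaV1.4 activation, was at 509, 556 and 494 CPM against 487, 511 and 596 CPM (0.10, SE 0.13). Cacnb2, the cytoplasmic beta subunit, was at 31.3, 32.1 and 37.5 CPM against 48.9, 36.9 and 37.3 CPM. Only control replicate 3 reached the guide values, and the fitted log2 difference, 0.37 (SE 0.17, adjusted p = 0.925), did not pass. Without control replicate 3 it was 0.40 (SE 0.20, adjusted p = 0.659).

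Of the 6 vesicle genes, 0 passed by any of the 3 tools, and no unadjusted p lay under 0.05. Slc17a7, the vesicular glutamate transporter VGLUT1, was at 167, 156 and 268 CPM in control and at 269.8, 177 and 260.1 CPM in guide libraries (log2 fold change 0.34, SE 0.22). Control replicate 3 lay between the guide libraries of replicates 1 and 3, and the other values were lower. Without it the log2 fold change was 0.56 (SE 0.19, adjusted p = 0.426), the top of a range of 0.20 to 0.56 over the fits without 1 library. Syt1, the calcium sensor synaptotagmin 1, was at 475 to 653 CPM in control and 448 to 501 CPM in guide libraries (-0.10, SE 0.14), and Syp, the vesicle membrane protein synaptophysin, at 348 to 444 CPM and 323 to 365 CPM (-0.09, SE 0.13). Exons of Syp overlap those of Gm14703 on the opposite strand over 16.8% of their length.

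Sv2b, a vesicle glycoprotein, was at 570.2, 514 and 631 CPM in control and at 656, 675 and 541 CPM in guide libraries (log2 fold change 0.21, SE 0.16). Its paralog Sv2a was at 51.9, 52.9 and 82.0 CPM against 38.8, 27.0 and 63.6 CPM (-0.46, SE 0.29). The replicate-3 library was the highest of its group for Sv2a, and guide replicate 3 lay above the lower control libraries. Without control replicate 3 the log2 fold change was -0.27 (SE 0.29). Rab3a, a vesicle-bound GTPase that interacts with RIM, was at 34.4 to 39.4 CPM in control and 24.8 to 39.5 CPM in guide libraries (-0.16, SE 0.19).

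Fusion genes included the most abundant transcripts of the list. Cplx4, a complexin of photoreceptor terminals, was at 2368, 2402 and 2751 CPM in control and at 2016, 2294 and 2266 CPM in guide libraries. Each guide library lay below each control library on this scale, and the log2 fold change from the fit was -0.12 (SE 0.13, 95% interval -0.41 to 0.18, adjusted p = 0.995). Snap25 was at 1256, 1345 and 1259.9 CPM against 1124, 1231 and 1008 CPM (-0.12, SE 0.15). Stx3, the syntaxin of ribbon terminals, was at 299 to 305 CPM in control and 261 to 364 CPM in guide libraries (0.16, SE 0.17). Vamp2, the vesicle SNARE, was at 138 to 184 CPM and 142 to 214 CPM (0.24, SE 0.17).

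Cplx3, the other complexin of ribbon terminals, was at 352, 312 and 196 CPM in control and at 181, 155 and 206 CPM in guide libraries. Control replicate 3 lay below guide replicate 3, so the groups overlapped. The log2 fold change was -0.62 (SE 0.25, unadjusted p = 0.0410, adjusted p = 0.843). Without control replicate 3 it was -0.86 (SE 0.15, adjusted p = 0.0835), and without both replicate-3 libraries, chosen after seeing the data, -0.92 (SE 0.14, adjusted p = 0.0867). Control replicate 3 was the control nearest the guide values, so leaving it out widens the difference. Over all fits without 1 library the log2 fold change of Cplx3 ranged from -0.86 to -0.39. In this bulk RNA, fewer cells of a type and less RNA per cell cannot be told apart. Cplx3 is also known from inner retinal neurons, whose 35 markers summed to 747, 816 and 405 CPM in control and 533, 305 and 742 CPM in guide libraries. Their part in the Cplx3 values was not tested.

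Cplx1 and Cplx2, the complexins of conventional synapses, were low and uneven. Cplx1 was at 7.42, 16.6 and 4.64 CPM in control and at 10.1, 2.06 and 13.2 CPM in guide libraries (log2 fold change -0.14, SE 0.68). Cplx2 was at 13.8, 19.6 and 6.59 CPM against 4.95, 3.76 and 11.4 CPM (-0.96, SE 0.52, adjusted p = 0.969). Guide replicate 3 lay above control replicate 3 for both genes.

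Disassembly of SNARE complexes depends on Nsf and the SNAP adaptors Napa and Napb. Napb (GRCm38 chromosome 2, 148693985 to 148732467, minus strand) was at 104, 114 and 151 CPM in control and at 239, 223 and 228 CPM in guide libraries. Each guide library exceeded each control library, and control replicate 3 was the highest control. Means were 123 ± 24.7 CPM in control and 229.9 ± 8.36 CPM in guide libraries (SD, n = 3 each), and the fit put the log2 difference at 0.99 (SE 0.14, adjusted p = 0.0493 by edgeR). GENCODE M21 gives no other gene whose exons overlap those of Napb. The fold ranged from 0.92 to 1.15 on the log2 scale over 16 other settings, and the call was kept in 8 of them. Leaving out control replicate 1 or 2 or any guide library ended the call (adjusted p = 0.127 to 0.366), as did sex as a term (1.05, adjusted p = 0.304), the replicate number as a block (0.99, adjusted p = 0.163) and library sizes without the most abundant genes (0.95, adjusted p = 0.0598). Without control replicate 3 the log2 fold change was 1.10 (adjusted p = 0.0221). Only guide replicates 2 and 3 were female, so with sex as a term the group difference rests on guide replicate 1 against the controls. That fit cannot separate sex from guide.

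The alpha adaptor Napa (chromosome 7, 16098458 to 16117975, plus strand) was at 477, 492 and 417 CPM in control and at 422, 446 and 551 CPM in guide libraries, with overlapping groups. The log2 difference was 0.10 (SE 0.15, 95% interval -0.26 to 0.45, adjusted p = 0.995). Nsf, the ATPase itself, was at 707, 691 and 878 CPM in control and at 592, 615 and 653 CPM in guide libraries. Each guide library lay below each control library, and the fitted log2 difference, -0.21 (SE 0.12, adjusted p = 0.995), did not pass. Napg, the gamma adaptor and not a member of the list, was at 74.1 to 101.1 CPM in control and 80.3 to 105 CPM in guide libraries (0.19, SE 0.14).

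**Figure D3:**
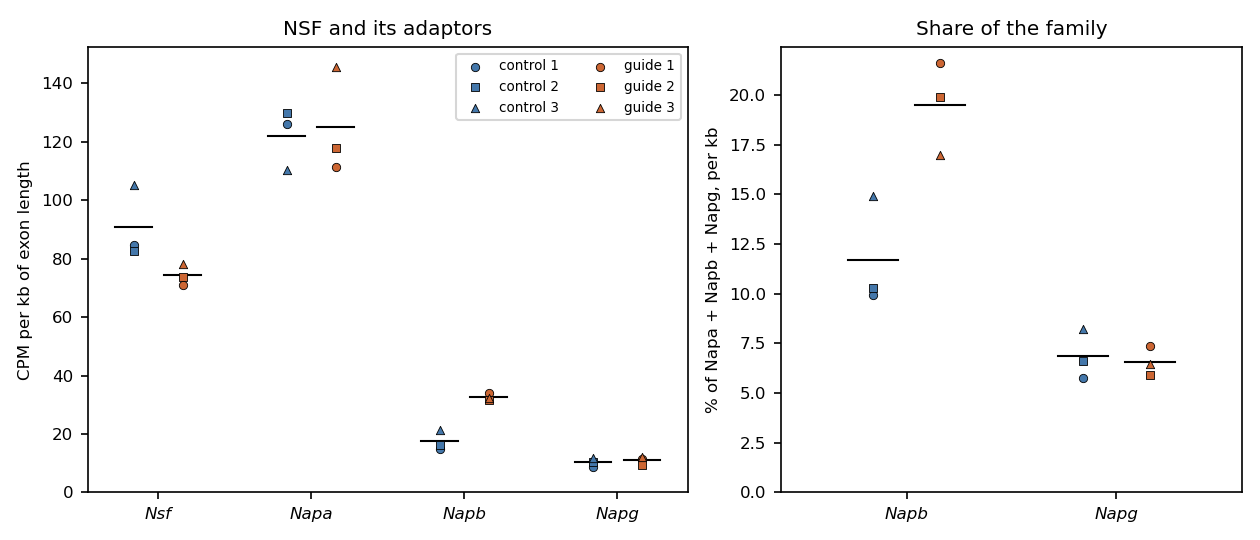
Left, CPM per kilobase of exon length of Nsf and the 3 SNAP adaptors in each library, with black bars for group means. Right, shares of Napb and Napg in the adaptor total, where Napb lies at 9.91 to 14.9% in control and 16.97 to 21.6% in guide libraries and Napg overlaps.

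The sum of 9 cone markers was also higher in each guide library, though the genes did not rise as a set. The 9 cone markers came to 7391, 8312 and 4121 CPM in control and to 16554, 14125 and 13687 CPM in guide libraries, with 0 of the 9 called by edgeR, 2 by DESeq2 and 0 by limma-voom, and 3 at unadjusted p under 0.05. Of these 9 genes, 4 had a log2 fold change above 0 (Gnat2, Pde6c, Pde6h and Gnb3). The other 5 (Opn1sw, Opn1mw, Arr3, Cnga3 and Cngb3) were below 0. Gnat2 held the largest rise, with a mean of 772 CPM in control and 7417 CPM in guide libraries. It was at 1086, 1027 and 201 CPM in control and at 8147, 6636 and 7468 CPM in guide libraries. Most of the difference between the summed levels therefore lay in this 1 gene. The 7 markers of pigment epithelium summed to 16.1, 17.8 and 5.66 CPM in control and 2.05, 1.09 and 4.26 CPM in guide libraries. Of the 4 that were tested, 4 had a log2 fold change below 0, 1 had an unadjusted p under 0.05, and edgeR and limma-voom called 0 and DESeq2 1 lower. Rpe65, a defining enzyme of that tissue, was at 0 to 0.0885 CPM. The part of cone and pigment epithelium transcripts in the rise of Napb was not tested.

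The bases before the start sites of Napb, its paralog Napa and Cplx3, chosen after their values were seen, are shown from the RefSeq annotation of GRCm38.p6, 5′ to 3′ along the gene and ending at the base before the start. Capitals mark matches, on either strand, to the CRX core TAATCC, the NRL motif TGCTGA, the NR2E3 motif AAGTCA and the E-box CACGTG. Napb lies at chr2:148732421-148732670 (minus strand), Napa at chr7:16098330-16098579 (plus strand) and Cplx3 at chr9:57606282-57606531 (minus strand).
Napb: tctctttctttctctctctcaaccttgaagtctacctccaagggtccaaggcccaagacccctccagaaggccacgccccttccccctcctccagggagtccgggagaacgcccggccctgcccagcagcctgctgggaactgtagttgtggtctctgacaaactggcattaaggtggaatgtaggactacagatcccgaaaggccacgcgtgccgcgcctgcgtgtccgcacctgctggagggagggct
Napa: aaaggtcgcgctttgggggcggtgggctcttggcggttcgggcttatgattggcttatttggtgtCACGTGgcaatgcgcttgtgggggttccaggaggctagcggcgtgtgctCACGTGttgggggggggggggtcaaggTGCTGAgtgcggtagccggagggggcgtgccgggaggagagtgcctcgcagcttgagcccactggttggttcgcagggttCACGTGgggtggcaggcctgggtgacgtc
Cplx3: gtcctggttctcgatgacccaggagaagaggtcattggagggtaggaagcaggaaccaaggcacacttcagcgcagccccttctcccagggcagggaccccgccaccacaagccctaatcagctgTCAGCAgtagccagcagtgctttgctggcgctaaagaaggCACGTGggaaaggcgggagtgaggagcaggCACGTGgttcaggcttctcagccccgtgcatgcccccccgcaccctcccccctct
The window of Napb held none of these letters. That of Napa held 1 NRL motif and 3 E-boxes, and that of Cplx3 held 1 NRL motif and 2 E-boxes. RefSeq promoters were found for 28 of the 34 genes, 36 in all counting alternative starts. The NR2E3 motif was in 3 of these (8.33%) and in 13.1% of all 32851 promoters, and the CRX core in 4 (11.1%) against 6.25%. The NRL motif was in 2 (5.56%) against 16.1% and the E-box in 5 (13.9%) against 6.02%. With so few promoters these percentages are imprecise. The CRX core was found before starts of Ctbp2, Sv2b and Syp, and the NR2E3 motif before starts of Amph, Stx3 and Sv2b. These matches describe the letters only.

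Of the 4 recycling genes, 0 passed by any of the 3 tools, and no unadjusted p lay under 0.05. Dnm3, a dynamin GTPase that cuts vesicles from the membrane, was at 129, 139 and 135 CPM in control and at 97.9, 71.1 and 130.2 CPM in guide libraries (log2 fold change -0.37, SE 0.19, adjusted p = 0.957). Control values were close together, and guide replicate 3 reached them. Dnm1, the neuronal dynamin, was at 25.2, 28.6 and 61.2 CPM against 36.3, 18.3 and 45.5 CPM (-0.12, SE 0.39), highest in the replicate-3 library of each group, and without control replicate 3 at 0.32 (SE 0.33). Amph, the adaptor amphiphysin, was at 144 to 194 CPM in control and 143 to 187 CPM in guide libraries (0.07, SE 0.13). Synj1, the lipid phosphatase synaptojanin 1, which uncoats vesicles, was at 121 to 202 CPM and 104 to 148 CPM (-0.18, SE 0.19).

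Levels of different genes were compared as CPM per kilobase of exon length from GENCODE M21. On this scale Cplx4 was highest in control libraries at 1291 ± 109, followed by Snap25 (189.6 ± 7.42), Cabp4 (148 ± 9.18), Napa (122 ± 10.4), Cplx3 (97.0 ± 27.4) and Nsf (90.9 ± 12.5; SD, n = 3 each). Cplx3 and Nsf did not differ beyond their spread on this scale. It merges all exons of a gene, 8346 bases for Nsf and 2953 for Cplx3. Their longest transcripts have 3766 and 2859 bases, so the order of these genes depends on the length used. Ctbp2 was at 38.6 ± 10.5 and Cacna1f at 29.9 ± 7.14. Bsn (0.669 ± 0.494), Rims1 (0.651 ± 0.488), Unc13a (0.419 ± 0.310), Erc1 (0.126 ± 0.0810) and Rimbp2 (0.0425 ± 0.0154) were lowest. How evenly the amplified cDNA covered long transcripts such as those of Bsn and Pclo cannot be read from counts per gene.

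Within 23 families of paralogs, 1 gene usually held most of the family's transcripts per kilobase. The leading gene had over 80% of its family in 19 families and over 90% in 9. It was the same in all 6 libraries for 21 families and was 1 of the 34 listed genes for 22. In control libraries Syt1 held 99.7 ± 0.119% of the total with Syt2, Cacna1f 98.9 ± 0.410% among CaV1 pore subunits, Slc17a7 97.3 ± 2.35% among vesicular glutamate transporters, Rims2 97.0 ± 2.06% against Rims1, and Erc2 94.8 ± 3.21% against Erc1 (SD, n = 3 each). Cacna2d4 held 95.8 ± 1.85% of the alpha2delta total, Cplx4 92.4 ± 2.50% of the complexins with 7.04 ± 2.29% for Cplx3, and Stx3 83.8 ± 2.34% of 5 syntaxins.

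Other families were divided. Beside Unc13b at 74.9 ± 5.40%, Unc13c held 19.8 ± 8.61% of the Munc13 total. Sv2a held 16.2 ± 2.52% of the SV2 total, Bsn 15.4 ± 5.29% against Pclo, Ctbp1 15.1 ± 1.44% against Ctbp2, Vamp3 17.6 ± 1.47% of the VAMP total, Cabp5, a calcium-binding protein of bipolar cells, 13.2 ± 6.66% of the CaBP total, Bin1 12.6 ± 3.56% against Amph, and Cacnb3 11.99 ± 3.13% of the beta subunits. Among dynamins Dnm1 held 41.2 ± 8.67%, Dnm3 33.9 ± 8.51% and Dnm2 24.9 ± 1.46%. With the longest transcript as length, Dnm3 led this family with 55.9%, and the leading gene was unchanged in the other 22 families.

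The leading share of 2 of the 23 families did not overlap between groups. Napa held 84.3, 83.1 and 76.9% of the SNAP adaptor total in control and 71.0, 74.2 and 76.6% in guide libraries, and Napb correspondingly 9.91, 10.3 and 14.9% against 21.6, 19.9 and 16.97%. In the RIM-binding proteins, Rimbp3 held 60.9, 68.4 and 37.5% in control and 22.8, 23.6 and 10.96% in guide libraries, while Tspoap1 held 41.5 ± 17.7% and 75.6 ± 5.54%. All transcripts of this family were low, with Rimbp3 at 2.54, 7.70 and 7.26 CPM against 1.58, 0.688 and 1.18 CPM. An exact permutation test of the leading share, two-sided, gave p = 0.1 for both families, the smallest p that 3 against 3 libraries allow, and adjusted p = 0.767 over the 23 families. The design cannot reach 0.05 here. Under random labels a family separates with probability 0.1, so 2 of 23 families is no more than chance would give. Without control replicate 3 the count of families with separate groups was 8, and without guide replicate 3 it was also 8. With fewer libraries groups separate more readily by chance, so these counts are not comparable with the 2 from all 6 libraries.

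**Figure D4:**
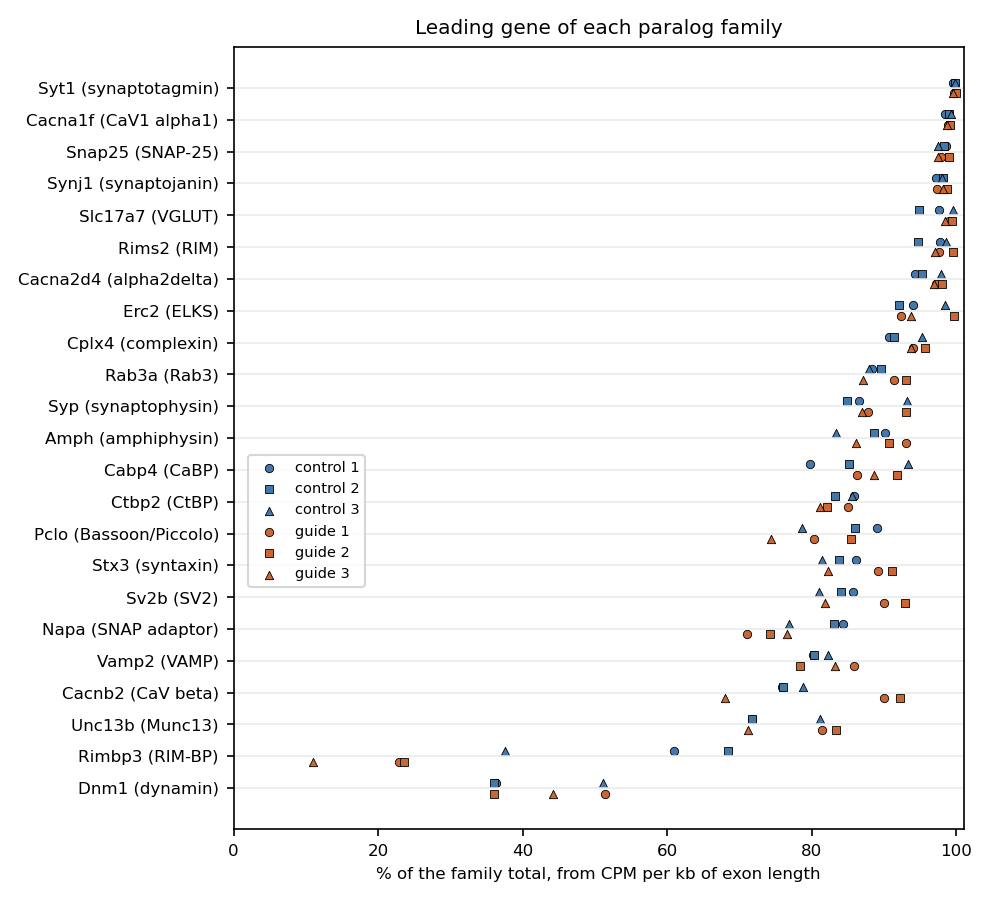
Share of the leading gene in each of 23 paralog families, in percent of the family's CPM per kilobase, for each library. Most leading genes sit above 80% in both groups, and Napa and Rimbp3 are the genes whose control and guide values are separate.

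The minor paralogs Rims1, Erc1, Cplx1 and Cplx2, grouped after their values were seen, varied widely between libraries of the same group. Their summed level was 27.2, 48.3 and 13.7 CPM in control and 22.1, 6.52 and 31.5 CPM in guide libraries. Control replicate 3 and guide replicate 2, lowest in their groups, were also lowest in markers of inner retinal neurons (405 and 305 CPM, against 533 to 816 CPM in the others). They were likewise lowest in 10 genes of conventional synapses (25.2 and 7.45 CPM against 29.0 to 75.2 CPM), a list that shares 3 genes with the inner retinal markers. Within the inner retinal markers, 9 of 12 bipolar, 9 of 10 amacrine, 4 of 5 horizontal and 7 of 8 ganglion cell genes were below both other controls in control replicate 3, and no marker was at 0 in all libraries. Other low paralogs did not share this order. Control replicate 3 was the highest control for Unc13a (9.80 CPM against 2.79 and 3.27), Bsn (19.7 CPM against 5.06 and 7.26) and Sv2a (82.0 CPM against 51.9 and 52.9). The part of inner retinal cells in the minor paralogs was not tested. Rims2 and Erc2, the leading genes of the same families, differed far less between libraries. Rims2 still had the same order, lowest at 176 CPM in control replicate 3 and at 194 CPM in guide replicate 2. So did the abundant Cplx3, at 196 and 155 CPM, so the order is not particular to minor paralogs. Guide replicate 2 lay below both other guide libraries for 22 of the 34 genes and for 7371 of all 17138 tested genes.

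**Figure D5:**
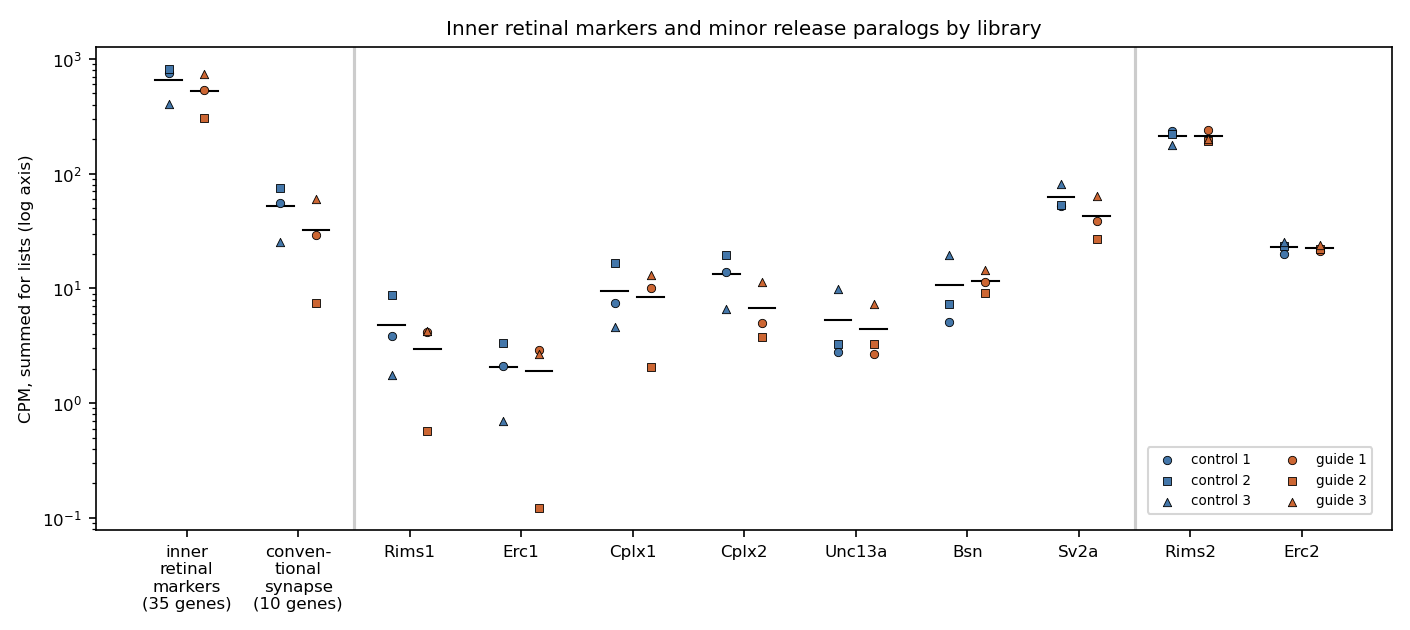
CPM on a log axis for the summed inner retinal markers (35 genes), summed conventional synapse genes (10 genes), the minor paralogs Rims1, Erc1, Cplx1, Cplx2, Unc13a, Bsn and Sv2a and the leading paralogs Rims2 and Erc2. Control replicate 3 and guide replicate 2 are the lowest libraries of their groups in both lists, in the first 4 minor paralogs and in Rims2. Control replicate 3 is the highest control in Unc13a, Bsn and Sv2a.

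Control replicate 3 lay above both other controls for 22 of the 34 genes and below both for 10. Over all tested genes these counts were 8685 and 5836 of 17138. Ctbp2, Bsn, Pclo, Unc13a, Unc13b, Cacna1f, Syt1 and Nsf were among the higher genes. Without this library the median log2 fold change of the 34 was 0.0073, with 18 genes above 0, and Napb was the single member called.

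A further 113 genes of release and of the synaptic cleft, listed by function, were read from the same fit. Of the 111 tested, edgeR and limma-voom called 0, while DESeq2 called 4, of which 3 were higher. It called 1.23% of all genes it tested. By edgeR, 9 of the 111 lay under an unadjusted 0.05, beside 976 of all 17138 genes. The median log2 fold change of the 111 was -0.18, with 30 above 0 and 81 below. Over all genes it was -0.01, with 8304 above 0 and 8834 below. Medians of inner retinal markers were -0.24 for bipolar, -0.60 for amacrine, -0.28 for ganglion and 0.20 for horizontal cells, and their part in the lists was not tested. The nearest to the threshold was Ppfia2, which encodes the active zone scaffold liprin-alpha2, at 82.4, 83.3 and 93.8 CPM in control and 161, 149 and 140.5 CPM in guide libraries (log2 fold change 0.88, SE 0.13, adjusted p = 0.0542 by edgeR). Each guide library lay above each control library. Exons of Ppfia2 overlap those of Acss3 and C230021G24Rik on the opposite strand over 24.5% of their length, so without strand some of its reads cannot be assigned. DESeq2 called Ppfia2 together with the synaptic adhesion genes Lrit3 and Lrfn2 as higher and Rimbp3 as lower.

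Lrit3 was at 23.8, 27.5 and 33.9 CPM in control and at 65.0, 45.1 and 60.2 CPM in guide libraries (log2 fold change 1.08, SE 0.18, adjusted p = 0.0807 by edgeR). Lrfn2 was at 2.42, 2.18 and 4.52 CPM against 9.24, 8.50 and 14.2 CPM (1.89, SE 0.35, adjusted p = 0.128). For Rimbp3 the log2 difference was -2.25 (SE 0.51, adjusted p = 0.251). Groups did not overlap for these 3 genes either. They and Ppfia2 were named for their test results, so their separate groups are no further evidence. Of the 113 genes, groups were separate with guide libraries higher for 4 and lower for 13. Over all 17138 tested genes these counts were 793 and 1294.

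The other lists held no gene called by any of the 3 tools. The smallest unadjusted p among fusion genes belonged to Stxbp5, the SNARE-binding tomosyn (34.6 ± 5.45 against 52.4 ± 12.3 CPM, log2 fold change 0.68, SE 0.19), and its relative Stxbp5l (-0.50, SE 0.23). Among vesicle genes these were Sv2c (1.35 ± 0.870 against 4.30 ± 1.28 CPM, 1.71, SE 0.62) and Syngr2 (-0.92, SE 0.49). Among channel genes they were Cacna2d2 (-1.21, SE 0.49) and Cabp2 (0.94, SE 0.51). Among endocytosis genes they were Ap2a2, a subunit of the clathrin adaptor AP-2 (430 ± 23.7 against 315 ± 73.0 CPM, -0.38, SE 0.17), and Itsn2 (-0.23, SE 0.14). Among conventional synapse genes they were Syn3, a synapsin (3.68 ± 1.35 against 1.68 ± 0.568 CPM, -1.05, SE 0.41), and Cacna1a (1.15, SE 0.88). Exons of Itsn2 and Syn3 overlap genes on the opposite strand over 13.9% and 14.1% of their length.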

How the data were processed

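Each of the 6 libraries has its own table of raw counts by gene symbol, as deposited by the authors. Per the submitters' processing notes, reads were handled with HTSeq 0.12.4, STAR 2.7.3a, cutadapt and, downstream, DESeq2 1.42.0, on GRCm38 (mm10). Which annotation and strand setting were used is not given in these sources. The 5 entries that name no gene (21.6 to 23.7% of counts) were left out. The test was edgeR 4.0.16 (R 4.3.3; TMM factors of 0.931 to 1.09, filterByExpr with min.count 10, glmQLFit and glmQLFTest on group, Benjamini-Hochberg adjusted p under 0.05). The SE is the log2 fold change over the square root of F. DESeq2 1.42.0 and limma-voom (limma 3.58.1) were alternatives, and the fits were tested on simulated data. A printed CPM uses the total gene count, a fold change the TMM-scaled one. Depth sets 3 counts at 0.0875 to 0.121 CPM, counting error only. Exon lengths and overlaps come from GENCODE M21 and promoters from RefSeq GRCm38.p6. Paralog shares were compared by exact permutation. All 34 members are named, and of the other lists the 2 genes of smallest p in each. The members, lists and rules were chosen with earlier results of these data known. Replicates are separate animals, and the test did not pair them by number.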

Additional observations from a re-analysis of the deposited data

How the results depend on the processing

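Over 16 other settings, 16 of the 34 genes kept the sign of their log2 fold change, Napb was the only member called in any (8 settings), and 18 genes changed sign in at least 1. Members called higher fell from 1 to 0 with library sizes without the 50 most abundant genes, with the replicate block, and with sex as a term, and ranged from 0 to 1 over the fits without 1 library. Over all genes, 54 were called higher and 5 lower, against 182 and 57 by DESeq2, 130 and 25 without a count filter, 31 and 1 with the replicate block, 6 and 0 with sex as a term, 14 to 80 and 0 to 9 without 1 library, and 2 lower by limma-voom. Of the other release genes, DESeq2 called 3 higher and 1 lower, the fit without a count filter 3 higher, the fit on genes of at least 5 CPM 1, that without both replicate-3 libraries (chosen after seeing the data) 1, and fits without 1 library 0 to 1. Families whose leading share did not overlap numbered 2, and 1 with the longest transcript, 1 without length, 14 without both replicate-3 libraries and 2 to 8 without 1 library. Fewer libraries separate more readily by chance, so counts with libraries left out are not comparable with the 2 from all libraries. Causes of these differences were not tested.

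Signs changed for uncalled genes as follows. The fit with sex as a term rests on guide replicate 1 against the controls, since all females were guide animals. With sex as a term, the log2 fold changes were Erc1 0.56, Erc2 -0.0245, Unc13b 0.0854, Cabp4 -0.0121, Cplx1 0.15, Napa -0.0530, Dnm1 0.0299. Without both replicate-3 libraries they were Pclo 0.29, Rims2 -0.0124, Rimbp2 -0.0054, Unc13a 0.0494, Cabp4 -0.0209, Syt1 0.0162, Syp 0.0060, Napa -0.0865, Dnm1 0.0826. Cacna2d4 was at -0.0065 with library sizes without the 50 most abundant genes. Over the fits without 1 library, the ranges were Ctbp2 -0.25 to 0.0569, Bsn -0.0765 to 0.94, Pclo -0.20 to 0.17, Rims1 -1.06 to 0.11, Rims2 -0.0902 to 0.20, Erc1 -0.54 to 0.46, Unc13a -0.68 to 0.55, Cacna2d4 -0.14 to 0.13, Syt1 -0.17 to 0.0094, Cplx1 -0.57 to 0.51, Napa -0.0131 to 0.17, Dnm1 -0.37 to 0.32, Synj1 -0.29 to 0.0053. Deviations of same-numbered libraries correlated at 0.17, -0.12 and 0.14, and guide replicate 1 correlated best with control replicate 2 (0.18). Deviations within a group of 3 libraries depend on each other, so these values cannot decide whether same-numbered libraries shared handling. Rimbp2, Erc1 and Rims1 had 2, 3 and 14 counts in guide replicate 2, so these values are imprecise. Scaled to depth they were also low, at 0.0810, 0.121 and 0.567 CPM.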
